A study of Mus musculus with 6 samples.

Results

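The genes of the secreted Wnt ligands and of the proteins that regulate them outside the cell, with the feedback gene Axin2, were followed across 2 histone marks. The set was a list of named genes: 19 Wnt ligands, 4 R-spondins, 4 Dickkopf genes, 6 genes of Wnt-binding proteins (Sfrp1, Sfrp2, Sfrp4, Sfrp5, Frzb and Wif1) and the feedback genes Notum and Axin2. All 35 were found in RefSeq GRCm38, among 21887 protein-coding genes. The cells were neural stem and progenitor cells of mouse embryonic forebrain (E13.5), expanded in culture with EGF and FGF. They received either water or 10 mM crotonate for 24 h, crotonate being a short-chain fatty acid salt from which cells make the donor for histone crotonylation. CUT&Tag, in which a transposase is led by an antibody to tag the DNA beside a mark, was made for H3K4me3, which marks promoters that are active or poised, and for H3K27me3, which Polycomb repressive complex 2 places on silent developmental genes. Each mark and treatment had 1 library, so no difference below has a replicate check, no test was possible, and every statement compares those libraries. The 2 IgG samples were not analysed here, and the sources used here give neither strain nor number of embryos. Peaks were read in each gene together with the 2 kb beyond either annotated end, and a mark was counted as present where a peak overlapped that stretch by at least 1 bp.

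Wnt proteins are lipid-modified ligands that bind Frizzled receptors, with the co-receptors Lrp5 and Lrp6 in the beta-catenin branch of the pathway, in which stabilised beta-catenin acts with TCF and LEF factors on target genes. In the developing forebrain several ligands are made by the cortical hem, a signalling centre at the medial edge of the cortex, and Wnt7a and Wnt7b are made by the cortical neuroepithelium itself. R-spondins strengthen the signal by binding Lgr receptors and withdrawing the ligases Znrf3 and Rnf43, Dickkopf proteins act on the co-receptors, Sfrp proteins, Frzb and Wif1 bind the ligands, Notum removes their lipid, and Axin2 is part of the complex that destroys beta-catenin.

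The annotated starts on which the results turn are shown first, as the 250 bases before the start on the gene's own strand (RefSeq, GRCm38.p6), with every CpG dinucleotide in capitals because the stretches differ most plainly in CpG. At Rspo4, Wnt6 and Dkk2 the start came under a H3K4me3 peak after crotonate, and at Rspo1 a new peak began just beyond it. Dkk1 stayed under H3K27me3 alone. Frzb lost a H3K27me3 peak that lay beyond its start, outside the stretch shown. The stretches are chr2:151842677-151842926, chr1:74771642-74771891, chr4:124986180-124986429 and chr3:132085042-132085291 on the plus strand, and chr19:30549497-30549746 and chr2:80447397-80447646 on the minus strand.
Rspo4: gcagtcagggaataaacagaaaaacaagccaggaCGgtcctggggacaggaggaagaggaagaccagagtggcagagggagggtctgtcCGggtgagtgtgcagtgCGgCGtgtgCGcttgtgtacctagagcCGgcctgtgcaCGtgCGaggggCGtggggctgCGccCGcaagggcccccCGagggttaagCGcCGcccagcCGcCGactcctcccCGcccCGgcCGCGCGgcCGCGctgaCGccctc
Wnt6: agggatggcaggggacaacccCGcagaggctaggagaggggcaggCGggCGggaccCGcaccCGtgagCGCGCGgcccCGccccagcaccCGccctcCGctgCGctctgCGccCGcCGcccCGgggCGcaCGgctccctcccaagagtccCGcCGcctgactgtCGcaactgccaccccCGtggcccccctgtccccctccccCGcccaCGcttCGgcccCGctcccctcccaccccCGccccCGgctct
Rspo1: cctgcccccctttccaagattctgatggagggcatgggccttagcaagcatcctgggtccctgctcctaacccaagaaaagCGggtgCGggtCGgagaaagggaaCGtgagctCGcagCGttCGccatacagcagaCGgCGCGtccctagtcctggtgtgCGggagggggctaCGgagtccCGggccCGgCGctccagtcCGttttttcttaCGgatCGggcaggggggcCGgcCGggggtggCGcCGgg
Dkk2: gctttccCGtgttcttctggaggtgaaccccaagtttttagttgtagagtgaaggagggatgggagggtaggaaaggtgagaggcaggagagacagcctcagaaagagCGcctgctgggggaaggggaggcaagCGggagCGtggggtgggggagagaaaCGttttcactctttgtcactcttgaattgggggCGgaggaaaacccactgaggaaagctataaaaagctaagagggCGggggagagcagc
Dkk1: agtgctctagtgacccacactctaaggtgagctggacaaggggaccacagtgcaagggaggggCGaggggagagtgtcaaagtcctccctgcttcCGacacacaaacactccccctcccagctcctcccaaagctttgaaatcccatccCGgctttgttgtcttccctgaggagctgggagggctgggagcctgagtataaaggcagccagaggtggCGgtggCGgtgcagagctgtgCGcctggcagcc
Frzb: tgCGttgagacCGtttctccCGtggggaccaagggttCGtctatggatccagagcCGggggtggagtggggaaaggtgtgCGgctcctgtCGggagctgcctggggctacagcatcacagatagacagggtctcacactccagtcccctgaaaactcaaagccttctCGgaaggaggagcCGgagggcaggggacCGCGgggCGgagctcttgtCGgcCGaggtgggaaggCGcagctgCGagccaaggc
The 250 bases held 24 CpG at Rspo4, 28 at Wnt6, 22 at Rspo1 and 16 at Frzb, against 7 at Dkk2 and 6 at Dkk1.

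In water, H3K27me3 was the more frequent mark at these genes. It was present at 25 of the 35, where 11.0% of all protein-coding genes had it, and H3K4me3 was present at 20, a share of 57.1% that is close to the 57.4% over all genes. At 12 of the genes a H3K4me3 peak lay on a H3K27me3 peak, against 3.87% of all genes. Another 12 carried H3K27me3 alone, 7 carried H3K4me3 alone, Wnt3 carried both at separate places, and Wnt8a, Dkk3 and Dkk4 had no peak of either mark in either treatment, a state shared by 33.2% of all genes. After crotonate 26 of the 35 had H3K4me3 (61.5% of all genes), 24 had H3K27me3 (14.9%) and 17 had both marks overlapping (7.05%). The change came from 6 genes with H3K27me3 alone in water that gained H3K4me3: the ligand genes Wnt1, Wnt3a and Wnt10a and the R-spondin genes Rspo1, Rspo2 and Rspo4. Over all genes 4.11% gained H3K4me3 and 0.032% lost it, and none of the 35 lost it. Among genes with H3K27me3 and no H3K4me3 in water, 38.6% gained H3K4me3, and here 6 of 12 did. Frzb lost H3K27me3, 1 of the 25 that had it in water (0.393% of all genes, and 3.57% of all genes with it in water), and no gene of the set gained it (4.24% of all genes).

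The gains depend on how the lists are compared. At a matched background depth, an alternative that scales the 1.8 times deeper background of the crotonate lists to that of water, the same 6 genes gained H3K4me3 (3.67% of all genes). With peaks of −log10 q, the caller's significance, of at least 5, these 6 gained it together with Wnt3 and Wnt4 (4.3% of all genes). Wnt3 and Wnt4 had water peaks just below that cutoff, with −log10 q of 4.86 at Wnt3 and of 4.72 and 4.55 at Wnt4. The H3K4me3 list was longer after crotonate (16007 peaks against 13221), and with both lists held to the same length by −log10 q, gains fell to 2 (Rspo1 and Wnt10a, against 2.1% of all genes). At that setting Wnt2b and Wnt3 lost H3K4me3 (0.375% of all genes), because shortening the list dropped their crotonate peaks (−log10 q 4.99 at Wnt2b, 5.01 and 3.02 at Wnt3). With these lists 20 of the genes carried H3K4me3 in each treatment. Overlapping marks were at 12 in each treatment (3.87% of all genes in water and 4.85% after crotonate). With peaks of −log10 q of at least 10 alone, 9 genes gained H3K4me3 (5.17% of all genes), of which Rspo1 is 1 of the 6 above, and the other 8 (Dkk2, Notum, Sfrp4, Wif1, Wnt2, Wnt6, Wnt9a and Wnt11) had a weaker peak in water.

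**Figure D1:**
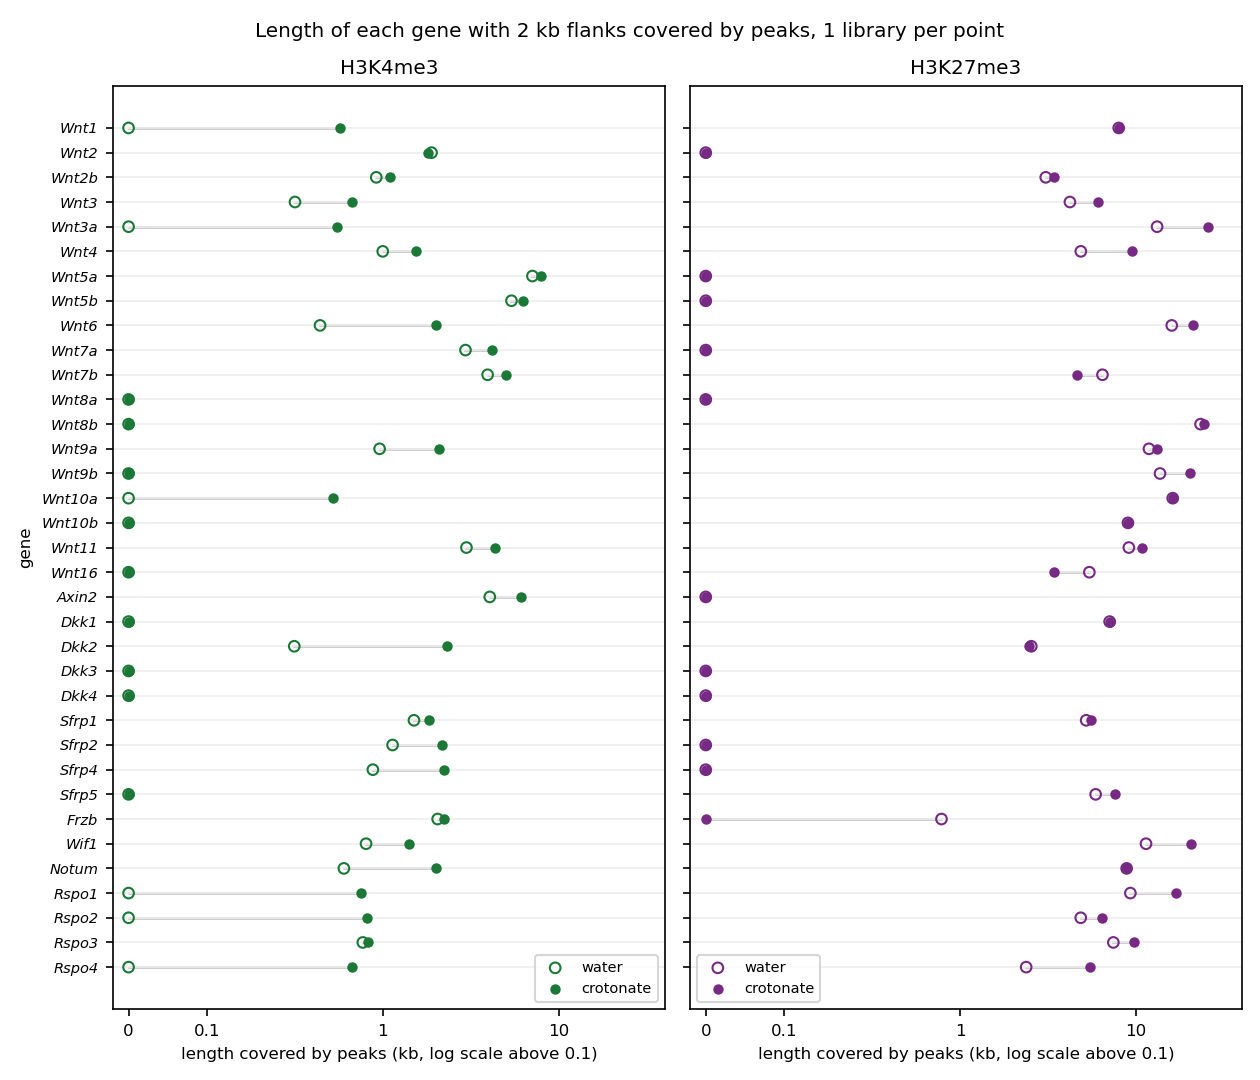
Length in kb of each gene with its 2 kb flanks that lay under H3K4me3 peaks (left) and H3K27me3 peaks (right), 1 library per point, with open circles for water and filled circles for crotonate (a filled circle inside an open one has nearly the same value). H3K4me3 moves from 0 to between 0.523 and 0.811 kb at Wnt1, Wnt3a, Wnt10a, Rspo1, Rspo2 and Rspo4, and H3K27me3 moves from 0.785 kb to 0 at Frzb.

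Of the 19 ligand genes, 14 carried H3K27me3 in both treatments, as did 10.6% of all genes. The domains, unbroken peaks of this mark, that were longer than 20 kb in water lay at Wnt6 and Wnt10a, Wnt1 and Wnt8b. Wnt6 and Wnt10a, neighbours on chromosome 1, shared 1 domain, which ran from 74785881 to 74808170 (22.3 kb) in water and from 74785794 to 74808528 (22.7 kb) after crotonate. Wnt1, the ligand gene of the midbrain-hindbrain boundary and the dorsal neural tube, lay on chromosome 15 under a domain of 21.3 kb in water, which also reached the neighbouring gene Ddn. That domain overlapped 2 peaks after crotonate, of which the one at Wnt1 measured 20.3 kb. Wnt10b, the neighbour of Wnt1 known from bone and fat formation, lay under a domain of 11577 bp in water and 11560 bp after crotonate. Wnt3 and Wnt9b on chromosome 11 shared a peak, 6.06 kb long in water and 7.07 kb after crotonate. Members of a pair that share a peak are therefore not separate observations. Wnt8b, a marker of the cortical hem and the adjoining hippocampal field, had a domain of 20.8 kb in water (20.9 kb after crotonate), which also reached the neighbouring gene Sec31b. Wnt1 and Wnt10a were covered by H3K27me3 over 100% of the gene and its flanks in both treatments.

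Ligand genes under H3K4me3 alone were Wnt2, Wnt5a, Wnt5b and Wnt7a, in both treatments. Wnt5a, a ligand best known outside the beta-catenin branch, had the longest H3K4me3 peak of the set, 4.66 kb in water and 4.92 kb after crotonate, with the authors' fold enrichment at 15.9 and 15.6. That peak was longer than 99.1% of all H3K4me3 peaks in the water list. Wnt7a, a ligand of cortical progenitors, had a peak over its start on chromosome 6 from 91409241 to 91412189 in water and from 91408716 to 91412601 after crotonate, 2.95 and 3.89 kb long. Both genes thus had long H3K4me3 peaks and no H3K27me3. Wnt5b carried a peak over its distal start, 1.82 kb long in water and 2.07 kb after crotonate, which also lies by the end of Gm52875. Its second strong peak, of 2.98 and 3.01 kb, lies at an end of Fbxl14, a gene inside the Wnt5b span, so it cannot be given to Wnt5b. Wnt2, a ligand of lung and vessel development, had 1 peak of 1892 bp in water and 2 peaks of 1075 and 730 bp after crotonate across that stretch, and was the only gene of the 20 with H3K4me3 in both treatments where the covered length was smaller after crotonate. At the other 19 it was larger (95.8% of all such genes larger, 4.04% smaller).

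H3K4me3 lay on H3K27me3 in both treatments at Wnt2b, Wnt4, Wnt6, Wnt7b, Wnt9a and Wnt11. At Wnt2b, a ligand of the cortical hem, the H3K4me3 peak measured 918 bp in water and 1104 bp after crotonate, inside a H3K27me3 peak of 3.07 and 3.43 kb. At Wnt9a, a ligand of joint formation, H3K4me3 covered 959 bp in water and 2092 bp after crotonate, with the whole peak on H3K27me3 each time. Wnt11, a ligand of kidney and heart development, had H3K4me3 over both of its annotated starts, 1786 and 1200 bp long in water and 2663 and 1677 bp long after crotonate, within a domain of 12.2 kb (water) or 12.9 kb (crotonate). These 3 genes therefore show the same order, a short H3K4me3 peak inside a longer H3K27me3 peak. Wnt7b, the second ligand of the cortical neuroepithelium, differed from Wnt7a in carrying H3K27me3 as well, over 6.45 kb in water. Wnt4, a ligand of kidney and gonad development, had 2 short H3K4me3 peaks on either side of its start, of 596 and 403 bp in water and 594 and 947 bp after crotonate, and neither covered the start itself.

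The new peaks at ligand genes were short. At Wnt1 the peak ran from 98790904 to 98791477 on chromosome 15, 574 bp that begin 1047 bp beyond the annotated start, with a fold enrichment of 6.66 and a −log10 q of 6.94. At Wnt10a, a ligand of teeth and hair, 523 bp were called from 74803117 to 74803639 on chromosome 1, by the gene end of higher coordinate, with a fold enrichment of 6.57. At Wnt3a, the hem ligand needed for the hippocampus, 552 bp were called inside the gene, 26385 bp beyond the start, with a fold enrichment of 5.16, while the start stayed under H3K27me3 alone. So none of these 3 peaks covered an annotated start known from the table used here. Wnt6, counted as carrying H3K4me3 in water through a peak of 440 bp some 12271 bp beyond its start, gained a second peak over the start itself, 1369 bp long from 74771241 to 74772609, with a fold enrichment of 8.96 and a −log10 q of 13.7. No water peak overlapped any of these 4, and each lay wholly on H3K27me3 in the crotonate list. Shorter new peaks of 327 bp at Wnt3, 316 bp at Wnt5b (by an end of Fbxl14) and 303 bp at Wnt7a lay off H3K27me3. Those genes already had H3K4me3 in water.

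Of the 4 R-spondin genes, 3 gained H3K4me3, and these were the 3 with H3K27me3 alone in water. Among ligand genes in that state 3 of 7 gained it, against 38.6% of all genes in that state. All 4 R-spondin genes carried H3K27me3 in both treatments, and in water H3K4me3 was present at Rspo3 only, over 770 bp (822 bp after crotonate). At Rspo1 the new peak measured 748 bp, began 31 bp beyond the start and had the highest −log10 q of the 6 gains, 11.6, with a fold enrichment of 8.34. At Rspo4 a peak of 669 bp on chromosome 2, from 151842463 to 151843131, covered the start (fold enrichment 6.34), and at Rspo2 a peak of 811 bp, from 43170054 to 43170864 on chromosome 15, lay by the gene end of higher coordinate (fold enrichment 6.05). All 3 lay wholly on H3K27me3. Within the crotonate list they were weak peaks: the −log10 q of the 6 gains ran from 6.28 to 11.6, at percentiles 15.2 to 22.5 of that list, whose median was 57.5. The gain at Rspo1 was called in 9 of 9 alternative settings, those at Rspo4 and Wnt1 in 7 of 9 and that at Wnt3a in 5 of 9. Wnt10a and Rspo2 have no matched start, and their gains were called in 7 and 6 of the 8 settings that could be run. Flanks of 1 kb, an overlap of 200 bp and −log10 q of at least 5 could not change any of these 6 calls. Gene ends only could not change them except at Wnt3a, and annotated starts only could not change those at Rspo1, Rspo4 and Wnt1. Flanks of 5 kb could matter only through a water peak just beyond 2 kb, and none lay there. The counts of settings therefore say little, and the calls were open mainly to equal lists, matched background depth and −log10 q of at least 10. With lists of equal length only Rspo1 and Wnt10a of the 6 stayed, and at −log10 q of at least 10 only Rspo1.

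**Figure D2:**
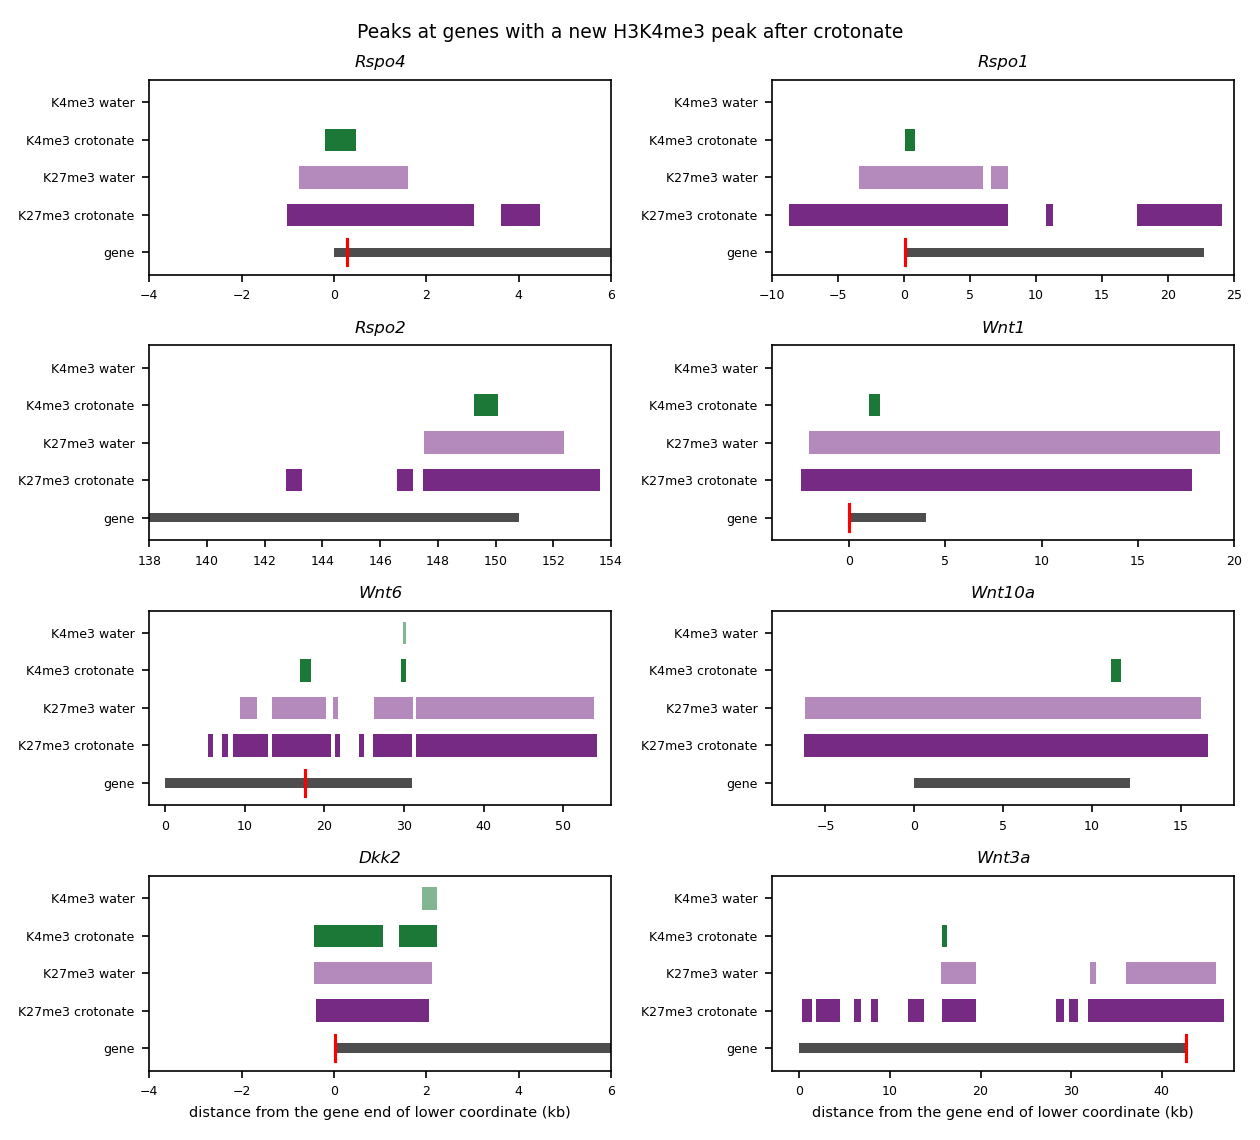
Peaks of both marks at 8 genes that had a H3K4me3 peak after crotonate with no counterpart in water, drawn to scale along the distance in kb from the gene end of lower coordinate, for peaks that reach the gene or its 2 kb flanks (grey bar, gene; red line, annotated start where the table gave one; paler bars, water). The new peaks drawn are short, 523 bp at Wnt10a to 1491 bp at Dkk2, beside H3K27me3 peaks that were called in both treatments. New peaks at Axin2, Notum, Wnt3, Wnt5b and Wnt7a, of 303 to 889 bp, are not drawn, and of these only that at Notum lay on H3K27me3.

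The inhibitor genes showed every combination of marks. Dkk1, the Lrp co-receptor inhibitor needed for head formation, carried H3K27me3 alone, over 92.9% of the gene with its flanks in water and 93.4% after crotonate. Dkk2, its relative, had a H3K4me3 peak of 314 bp in water that lay 1882 bp beyond the start, and after crotonate that peak measured 812 bp and a new one of 1491 bp (fold enrichment 13.1, −log10 q 24.2) covered the start. H3K27me3 at Dkk2 was nearly the same length in both lists, 2540 bp in water and 2456 bp after crotonate. The covered H3K4me3 length at Dkk2 went from 314 to 2303 bp, the highest ratio of the set at 7.33.

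Among the genes of Wnt-binding proteins, Sfrp1, a gene of cortical progenitors, and Wif1 carried both marks in both treatments. At Sfrp1 the H3K4me3 peak measured 1503 bp in water and 1837 bp after crotonate, and at Wif1 803 and 1410 bp, each wholly on H3K27me3. Sfrp2 and Sfrp4 carried H3K4me3 alone, over 1136 and 878 bp in water and 2178 and 2219 bp after crotonate. Sfrp5 carried H3K27me3 alone, over 71.2% of the gene with its flanks in water and 91.5% after crotonate. These 5 genes kept their state.

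Frzb, which encodes a secreted Frizzled-related protein first known from cartilage, did not. In water a H3K27me3 peak of 785 bp, from 80446286 to 80447070 on chromosome 2, lay beside its start and overlapped the H3K4me3 peak by 584 bp. Its fold enrichment was 6.38 and its −log10 q 6.04, above 61.4% of the water list. No H3K27me3 peak was called there after crotonate, and the nearest one was 44875 bp from the water peak. The H3K4me3 peak over the start measured 2049 bp in water and 2214 bp after crotonate. The loss was called in 8 of 9 alternative settings, but none of these could have changed it, because none could bring a crotonate peak into the gene. In the remaining setting, −log10 q of at least 10, the water peak itself fell below the cutoff.

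Of the feedback genes, Axin2 carried H3K4me3 alone and Notum carried both marks. Axin2, on chromosome 11 from 108917828 to 108950783, had a peak of 4.05 kb over its annotated start in water and of 4.55 kb after crotonate. Its fold enrichment was 17.6 in water and 12.7 after crotonate, while its −log10 q was 49.8 and 57.5, so the peak values moved in opposite directions. After crotonate 2 further peaks were called at Axin2, of 631 bp before the start and 889 bp beyond it, so a count at gene ends alone, which misses this inner start, takes Axin2 for a gain. Notum had a peak of 601 bp in water, and after crotonate that peak measured 1598 bp and a second of 414 bp was called, all within H3K27me3 over 9.93 kb in water and 12.4 kb after crotonate.

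H3K4me3 peaks were wider after crotonate at nearly all of these genes, as in the whole list. Of the H3K4me3 peaks at these genes, 25 could be matched to exactly 1 peak of the other list, and 24 of those were wider after crotonate (96.0%, against 94.5% of all 12093 paired peaks). The 25 include the peaks inside the Wnt5b span that lie at an end of Fbxl14. Peaks at Notum, Dkk2, Sfrp4 and Wnt4 had the highest ratios of width, 2.66, 2.59, 2.53 and 2.35. The other peak at Wnt4 had the lowest, 0.997. The 15 paired peaks on H3K27me3 in water had a median of 918 bp in water and 1598 bp after crotonate and a median ratio of 1.40, against 2118 bp, 2610 bp and 1.19 for the 10 off H3K27me3. The lengths of both groups overlapped, with 2268 bp in water at Wnt7b on H3K27me3 and 317 bp at Wnt3 off it. The same ratios over all paired peaks were 1.48 (829 peaks) and 1.23 (11264 peaks). Peak width moves with depth, which the lists do not give and whose part in these ratios was not tested.

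H3K27me3 covered more of the gene with its flanks after crotonate at 17 of the 24 genes that had it in both treatments, less at 5 and the same at 2, Wnt1 and Wnt10a (79.7% of all such genes more, 12.9% less). The median ratio of covered length was 1.15, against 1.31 over all such genes. Rspo4 had the highest ratio, from 2376 to 5494 bp. It was followed by Wnt4, from 4857 to 9510 bp, and Wnt3a, from 13.2 to 25.5 kb. At Rspo1 and Wif1 the covered length went from 9.29 to 16.8 kb and from 11.4 to 20.6 kb. The added length took different forms. Wnt3a had 3 H3K27me3 peaks in water and 9 after crotonate, and Wif1 8 and 13. At Wnt4 the number went from 3 to 2, as a peak of 4923 bp in water measured 11280 bp after crotonate and took in the others. At Rspo1 a domain of 9420 bp in water lay after crotonate in a peak of 16591 bp, which overlapped 5 water peaks and began outside the 2 kb flank. Most of the added length within the flanks of Rspo1 came from a separate new peak of 6405 bp (−log10 q 7.75). Of the 70 H3K27me3 peaks at the set after crotonate, 32 at 12 genes had no counterpart in water (45.7%), a smaller share than the 56.7% of such peaks at all protein-coding genes and the 63.2% of the whole crotonate list. Their median length was 718 bp and their median −log10 q 4.16. With lists of equal length 13 new peaks were left (27.1%, against 30.6% at all protein-coding genes), and at a matched background depth 21 (35.6%, against 45.1%). H3K27me3 shrank at Wnt7b and Wnt16. The 6446 bp domain of Wnt7b was called as 2 peaks of 3586 and 1062 bp after crotonate, and the longer H3K4me3 peak there, of 2268 bp in water and 3016 bp after crotonate, spans the gap. At Wnt16, a ligand of bone, the peak over the start measured 3833 bp in water and 1910 bp after crotonate, with a −log10 q of 23.7 and 8.88, and no H3K4me3 was called.

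**Figure D3:**
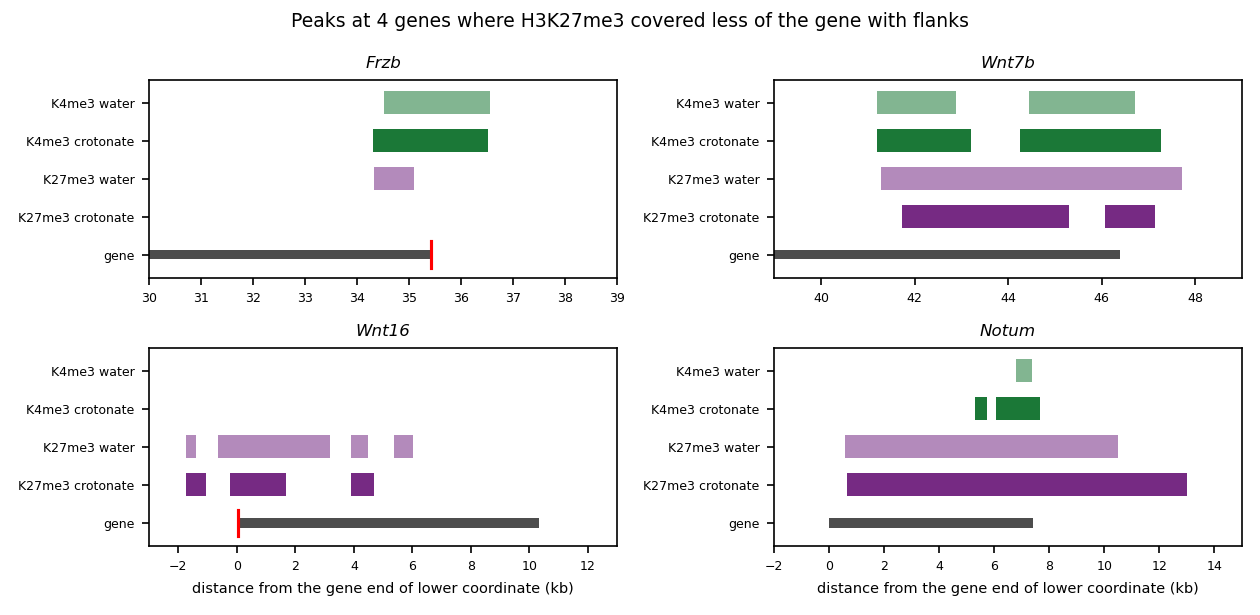
Peaks of both marks at Frzb, Wnt7b, Wnt16 and Notum, along the distance in kb from the gene end of lower coordinate, for peaks that reach the gene or its 2 kb flanks (grey bar, gene; red line, annotated start where the table gave one; paler bars, water). Frzb has no H3K27me3 after crotonate, the Wnt7b domain is called in 2 pieces, the Wnt16 peak over the start is shorter, and at Notum the covered length within the flanks is 8846 bp in water and 8754 bp after crotonate although the whole peak is longer.

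Annotated starts with sequence were matched for 24 of the 35 genes, 27 starts in all. H3K27me3 lay over 19 of the 27 start bases in water and over the same 19 after crotonate, against 5.5% and 6.56% of all 21263 such starts (1.48% gained and 0.419% lost). H3K4me3 lay over 11 in water (49.9% of all starts) and 14 after crotonate (54.4%), the additional ones being those of Dkk2, Rspo4 and Wnt6 (gained at 4.62% of all starts and lost at 0.127%). CpG in the 300 bases around the start, 250 before and 50 after, differed among the groups of genes by their marks. The 6 genes with H3K27me3 alone in both treatments had a median of 12.5 CpG, from 6 at Wnt8b to 29 at Wnt9b. The 4 matched genes that gained H3K4me3 (Wnt1, Wnt3a, Rspo1 and Rspo4) had a median of 30 CpG, from 26 to 45, so these groups overlap through Wnt9b alone. The starts that themselves came under H3K4me3 do not follow that order, since Rspo4 and Wnt6 had 31 CpG each and Dkk2, with the highest −log10 q of these new peaks, had 11, within the range of the H3K27me3-only genes. Genes with both marks in water had a median of 31 and those with H3K4me3 alone 27, against 7 over the 27025 genes of the sequence table. These are descriptions over few genes, with no test, and the peaks at Wnt1 and Wnt3a lie away from the stretch counted. The TCF/LEF motif, searched as CTTTGAA or CTTTGAT on both strands, was found by 3 of the 27 starts, those of Dkk1, Wnt11 and 1 of Wnt5b (11.1%, against 8.65% of all 32851 promoters of the table), and TATAAA by 4, at Dkk1, Dkk2, Wif1 and 1 start of Wnt11 (14.8%, against 13.6%).

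**Figure D4:**
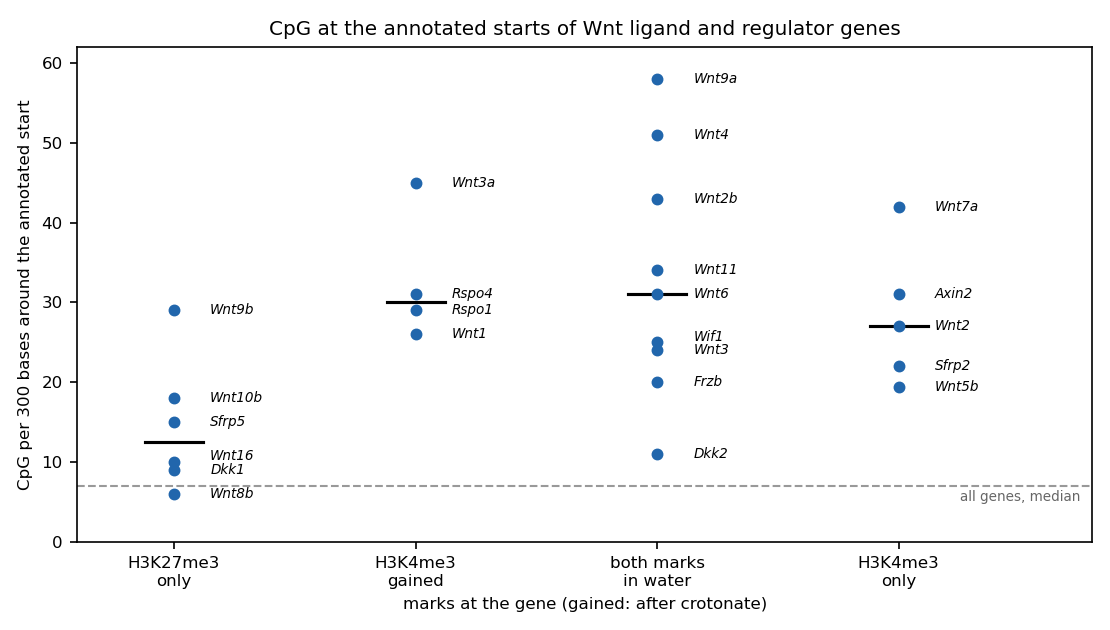
Number of CpG in the 300 bases around the annotated start for each of the 24 matched genes (the mean where a gene has several starts), grouped by marks at the gene, with the group median as a black bar and the median over all genes of the table as a dashed line. The H3K27me3-only genes sit between 6 and 29 and the genes that gained H3K4me3 between 26 and 45.

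Of 49 other genes of receptors, ligand secretion, R-spondin receptors, cytoplasmic and nuclear components and targets, 47 carried H3K4me3 in water and 11 carried H3K27me3, against 20 and 25 of the 35 ligand and regulator genes and 57.4% and 11.0% of all genes. All 16 receptor genes and all 13 cytoplasmic genes carried H3K4me3 in both treatments. The 2 without it in water, Lgr6, a R-spondin receptor gene, and Sp5, a direct target gene of beta-catenin, carried H3K27me3 and gained H3K4me3 over 718 and 1082 bp, with top fold enrichments of 4.80 and 5.57. Over all genes 4.11% gained H3K4me3, and 38.6% of those with H3K27me3 and no H3K4me3 in water did. Fzd6, a Frizzled receptor gene, lost a H3K27me3 peak of 1193 bp (−log10 q 3.61), and Ror2, a receptor gene of the Wnt5a branch, gained one of 552 bp (−log10 q 2.26). Over all genes 0.393% lost H3K27me3 and 4.24% gained it. Lgr5, a R-spondin receptor gene and stem cell marker, had H3K27me3 over 25524 bp in water and 49256 bp after crotonate, with H3K4me3 over 787 and 1452 bp.

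As a check of the culture, 12 of 12 progenitor marker genes, Sox2 and Nes among them, carried H3K4me3 in both treatments (57.4% of all genes in water, 61.5% after crotonate). Of these, Id4 carried H3K27me3 in both treatments and Msi1 after crotonate only. None of 7 microglial marker genes carried either mark, a state shared by 33.2% of all genes. Of 6 endothelial and 6 fibroblast marker genes, 1 each carried H3K4me3 in water and 2 each after crotonate. The counts with H3K27me3 were the same, 1 each in water and 2 each after crotonate (11.0% and 14.9% of all genes).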

How the data were processed

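CUT&Tag peak lists of 4 of 6 samples were used, 1 per mark and treatment. Per the submitters' processing notes, the authors used GRCm38, MACS2 2.2.7.1, Bowtie2 2.4.1, Picard 2.22.0 and SAMtools 1.10. The sources used here do not give their settings, the handling of duplicates or the library taken as background. Per the file headers, each peak has a pileup, which is a signal scaled by the authors' caller, −log10 of p and q, and a fold enrichment, a linear ratio of summit signal to local background. These peak values are the authors' own and describe peaks within 1 list. Depth is not stated. Read with 1 added to signal and background, the lowest local background, per bp of the shortest peak, was 1.8 times as high after crotonate in both marks, which changes the power to call peaks.

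Gene spans came from RefSeq GRCm38.p6, and starts with strand from its promoter table, matched by gene ID. Overlaps were computed with pandas 2.3.3, numpy 2.4.6 and scipy 1.17.1 in Python 3.11.15, tested on simulated peaks and checked against bedtools 2.31.1, and drawn with matplotlib 3.10.9. A gained mark was called in crotonate only, a lost mark in water only. All 35 genes may be named. Values are given for genes that gained or lost a mark or had overlapping marks, for the longest H3K27me3 and strongest H3K4me3 peaks and for Axin2. Not every peak or peak value of these genes is printed. The genes, lists and printed sequences were chosen with earlier results of these data known.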

Additional observations from a re-analysis of the deposited data

How the results depend on the processing

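The 10 counts of genes were recomputed under 9 alternatives (−log10 q of at least 5 or 10, lists of equal length, matched background depth, flanks of 1 or 5 kb, gene ends only, annotated starts only, an overlap of 200 bp). With −log10 q of at least 5, 1 gene lost H3K4me3 (Wnt2b, against 0.0594% of all genes). Its crotonate peak missed that cutoff with a −log10 q of 4.99, and it was longer than the water peak (1104 against 918 bp). With −log10 q of at least 10, 9 genes had H3K4me3 in water. Wnt16, and not Frzb, then lost H3K27me3 (against 0.228% of all genes), since its crotonate peak over the start had a −log10 q of 8.88. Overlapping marks were then at 3 genes in water and 9 after crotonate, against 1.18% and 3.34% of all genes, a share that also rose. With lists of equal length, 2 genes gained and 2 lost H3K4me3. With 5 kb flanks, 1 gene gained H3K27me3 (Wnt7a). Annotated starts exist here for 24 of the 35 genes, and of these 12 had H3K4me3 in water and 16 after crotonate, and 7 and 10 had overlapping marks. Shares over all genes were not computed for 5 kb flanks, annotated starts only, or H3K4me3 in water at −log10 q of at least 10. These counts therefore cannot be read as particular to the set. The share of all annotated start bases under H3K4me3 also rose, from 49.9% in water to 54.4% after crotonate. The median ratio of H3K4me3 width over the paired peaks of the set was 1.32, against 1.24 over all paired peaks. With widths summed over the gene it was 1.48 for the set, against 1.28 over all genes with the mark in both treatments. With lists of equal length the ratio over paired peaks of the set was 1.36. The median ratio of H3K27me3 coverage was 1.13 without flanks, 1.08 with lists of equal length and 1.11 at a matched background depth. The last 2 settings for coverage and the equal lists for width were chosen after seeing the data. Shortening a list drops whole peaks, and no setting matched the depth of the marked libraries. No paired analysis was possible because each group has 1 library.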
